A study of Mus musculus with 6 samples.

Results

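The hairpin miR-142a gives 2 mature miRNAs, mmu-miR-142a-5p and mmu-miR-142a-3p, which are its 5p and 3p arms and are called miR-142a-5p and miR-142a-3p here. Both were picked by name from the 1926 rows of the deposited table, and each has a row of its own that is merged with no other miRNA. The pair was chosen with the seizure comparison already known, in which miR-142a-5p had stood out, so its difference between the groups and the ratio of its arms are given here as a description. Where a call from the fit over all miRNAs is named for an arm, it is not a test of it and supports nothing.

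Small RNA was sequenced from brain-derived extracellular vesicles of mice, which are small membrane-bound particles shed by cells. The CON-BDEV group holds 3 libraries of control mice, and the SE-BDEV group holds 3 libraries of mice after status epilepticus, a prolonged seizure. All titles carry day 10. What the day counts from, the agent that caused the seizures, the strain, sex and age of the mice, and whether libraries came from separate animals are not given in the labels, so the spread between libraries may be technical.

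miR-142a is known as a miRNA of blood-forming lineages. It is abundant in leukocytes, including the macrophages of tissues and the microglia of brain, and scarce in neurons. A miRNA hairpin is cut to a short duplex, and either strand may be loaded into an Argonaute protein, where bases 2 to 8, the seed, pair with target messenger RNAs. The arms of miR-142a therefore address different targets. Both are studied as regulators of leukocyte development and function.

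The sequences are shown because the arms differ in the seed. They come from RefSeq (GRCm38.p6). In the hairpin the capitals mark both mature miRNAs, and in the other lines they mark the seed. The third mature sequence, miR-142b, belongs to a hairpin annotated on the opposite strand of the same place.
Mir142 hairpin: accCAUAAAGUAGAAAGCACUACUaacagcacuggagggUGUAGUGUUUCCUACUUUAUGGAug
miR-142a-5p: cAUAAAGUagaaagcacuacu
miR-142a-3p: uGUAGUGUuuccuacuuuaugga
miR-142b: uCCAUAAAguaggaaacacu

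The hairpin lies on chromosome 11, and in GENCODE M21 (GRCm38) it sits in the intron of the noncoding host gene Mir142hg, on the same strand. The submitters' notes name another build (mm9), so no positions are given. Of the 64 bases of the hairpin, miR-142a-5p takes bases 4 to 24 and miR-142a-3p bases 40 to 62, with 15 bases between them. The fold predicted by RNAfold had a minimum free energy of -26.9 kcal/mol and 19 base pairs between the arms. Beyond the last pair between the arms, 2 bases remained at the 3′ end of the 3p arm and 1 at that of the 5p arm. Pairs of these bases with bases outside the arms were not looked at. miR-142a-5p begins with C and miR-142a-3p with U. Both arms are low in G and C, at 33.3% for 5p and 34.8% for 3p, against a median of 50% over the 268 tested miRNAs with a sequence in the table.

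No other of the 1679 mature mouse miRNA names in the sequence table shares bases 2 to 8, or bases 2 to 7, with either arm. The antisense miR-142b is the reverse complement of bases 4 to 23 of miR-142a-3p. It was listed at 0 in all 6 libraries. Whether the authors' counting used strand is not stated in the labels.

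miR-142a-5p stood at 20.9, 25.7 and 26.5 RPM (reads of a miRNA scaled to the library's total of miRNA reads) in CON-BDEV 1, 2 and 3. It stood at 93.2, 121 and 64.3 RPM in SE-BDEV 1, 2 and 3. Every SE-BDEV value lay above every CON-BDEV value, and the lowest SE-BDEV library was 2.43 times the highest CON-BDEV library. The group values were 24.3 ± 3.00 and 92.7 ± 28.2 RPM (SD, n = 3), a ratio of means of 3.81.

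The less abundant arm, miR-142a-3p, stood at 5.91, 3.81 and 7.14 RPM in CON-BDEV 1, 2 and 3 and at 10.1, 17.4 and 21.9 RPM in SE-BDEV 1, 2 and 3. The groups did not overlap for this arm either, with the lowest SE-BDEV library at 1.42 times the highest CON-BDEV library. The group values were 5.62 ± 1.69 and 16.5 ± 5.96 RPM (SD, n = 3), a ratio of means of 2.93. Both arms together summed to 26.8 to 33.6 RPM in CON-BDEV and to 86.2 to 138 RPM in SE-BDEV. In vesicles, more particles from one kind of cell and more of a miRNA per particle cannot be told apart.

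**Figure D1:**
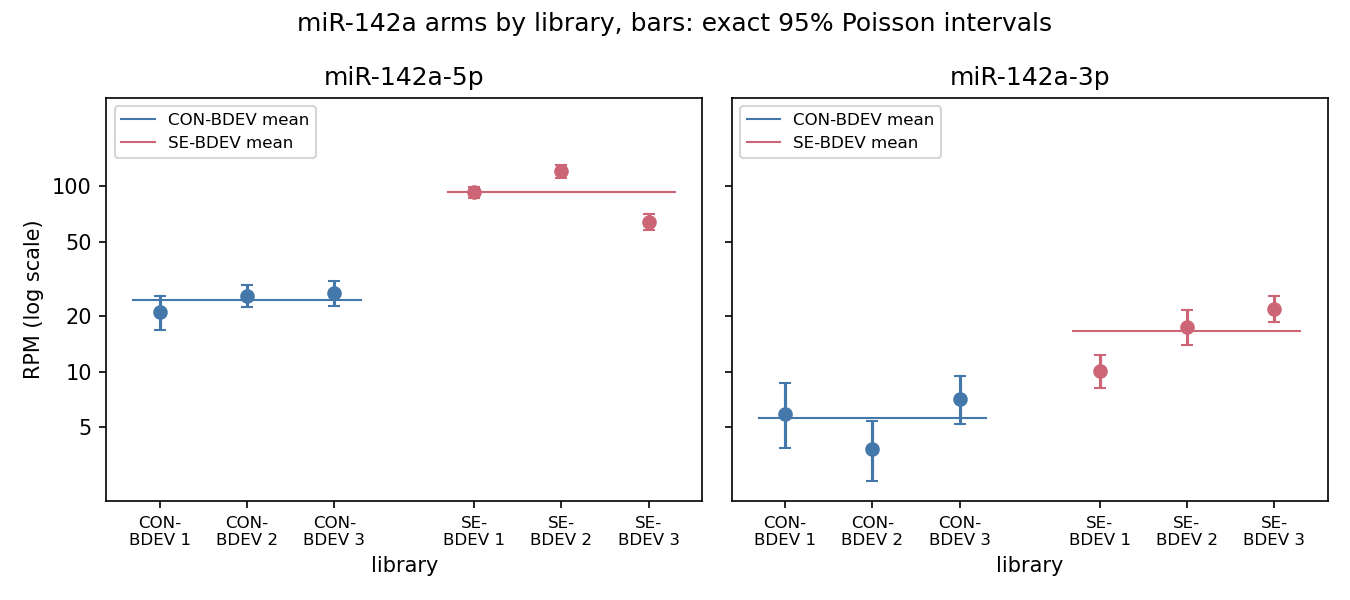
RPM of miR-142a-5p (left) and miR-142a-3p (right) in each library on a log scale, with exact 95% Poisson intervals as bars and group means as lines. All SE-BDEV points lie above all CON-BDEV points in both panels, and the highest SE-BDEV library is number 2 for 5p (121 RPM) and number 3 for 3p (21.9 RPM).

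These values rest on few reads. The RPM values are whole multiples of a step taken as 1 read, which gave 92 to 209 reads of miR-142a-5p per CON-BDEV library and 434 to 875 per SE-BDEV library. For miR-142a-3p it gave 26 to 47 reads per CON-BDEV library and 87 to 148 per SE-BDEV library. Exact 95% Poisson intervals, which cover counting error only, kept the groups apart for miR-142a-5p, whose highest CON-BDEV bound was 30.7 RPM and lowest SE-BDEV bound 58.4 RPM. For miR-142a-3p the interval of CON-BDEV 3 (5.25 to 9.50 RPM) overlapped that of SE-BDEV 1 (8.18 to 12.4 RPM).

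The SE-BDEV libraries also differed from one another, as separate samples can beyond counting error. For miR-142a-5p the intervals of SE-BDEV 3 (58.4 to 70.6 RPM), SE-BDEV 1 (87.1 to 99.5 RPM) and SE-BDEV 2 (111 to 131 RPM) did not overlap. For miR-142a-3p the interval of SE-BDEV 1 ended below those of SE-BDEV 2 (13.9 to 21.5 RPM) and SE-BDEV 3 (18.5 to 25.8 RPM), which overlapped each other. In these 3 libraries the order differed by arm, and SE-BDEV 3 had the lowest miR-142a-5p and the highest miR-142a-3p of its group. In CON-BDEV, the intervals of the 3 libraries overlapped for miR-142a-5p. The coefficient of variation between libraries was 12.3% in CON-BDEV and 30.4% in SE-BDEV for miR-142a-5p, and 30.0% and 36.2% for miR-142a-3p.

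Among all miRNAs above 0 in a library (532 to 631), ordered from the highest, miR-142a-5p ranked 246, 206 and 227 in CON-BDEV 1, 2 and 3. In SE-BDEV 1, 2 and 3 it ranked 140, 114 and 165. miR-142a-3p ranked between 353 and 394 in CON-BDEV and between 234 and 312 in SE-BDEV. Both arms therefore stood higher in the order of each SE-BDEV library than in that of any CON-BDEV library.

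The 5p arm was the more abundant in all 6 libraries. The ratio of 5p to 3p was 3.54, 6.74 and 3.70 in CON-BDEV 1, 2 and 3, and 9.21, 6.93 and 2.93 in SE-BDEV 1, 2 and 3. SE-BDEV held both the highest and the lowest ratio, and the groups overlapped. Of the reads of both arms, 5p made up 81.3% ± 5.06 (SD, n = 3) in CON-BDEV and 84.1% ± 8.33 (SD, n = 3) in SE-BDEV.

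The share varied between libraries of 1 group. It was 90.2% in SE-BDEV 1 (exact Clopper-Pearson 95% interval 88.2 to 92.0%, 970 reads) and 87.4% in SE-BDEV 2 (84.7 to 89.8%, 690 reads). In SE-BDEV 3 it was 74.6% (70.8 to 78.1%, 582 reads). In CON-BDEV 1, 2 and 3 it was 78.0% (69.4 to 85.1%), 87.1% (82.2 to 91.1%) and 78.7% (72.7 to 83.9%). SE-BDEV 3 lay apart from the other SE-BDEV libraries and overlapped with CON-BDEV 1 and 3.

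**Figure D2:**
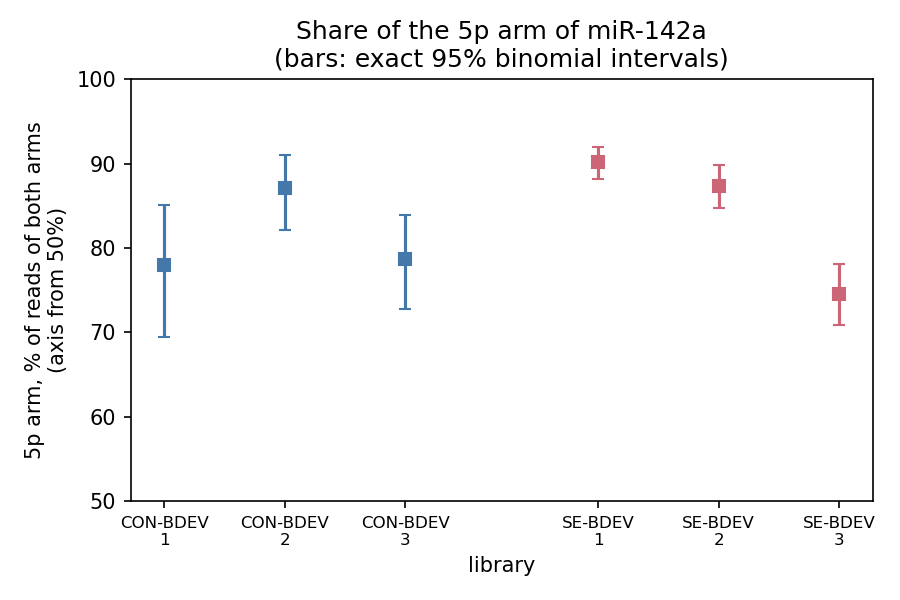
Share of the 5p arm among the reads of both miR-142a arms in each library, with exact 95% binomial intervals as bars and an axis that starts at 50%. The shares run from 74.6% in SE-BDEV 3 to 90.2% in SE-BDEV 1, so the SE-BDEV group spans the CON-BDEV values.

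On the log2(RPM + 1) scale the ratio of 5p to 3p was 1.96 ± 0.44 (SD, n = 3) in CON-BDEV and 2.44 ± 0.82 (SD, n = 3) in SE-BDEV, a difference of 0.48 that is smaller than the SD within SE-BDEV. This difference depended on single libraries. It was 0.15 without SE-BDEV 1 and 0.94 without SE-BDEV 3. It was 0.73 without CON-BDEV 2, and 0.84 without both libraries numbered 3.

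The comparison of SE-BDEV with CON-BDEV was fitted with limma on log2(RPM + 1) over the 308 miRNAs that averaged at least 10 RPM across the 6 libraries, and called at a Benjamini-Hochberg adjusted p under 0.05. miR-142a-5p had a log2 difference of 1.85 ± 0.32 (SE), which ranked 4 of 308 from the highest. miR-142a-3p had a log2 difference of 1.37 ± 0.48 (SE), which ranked 7. The median over all tested miRNAs was 0.06. Of the 2 arms, 1 was called, miR-142a-5p, where 0.974% of tested miRNAs were called. Both arms had non-overlapping groups with SE-BDEV higher, where 10.7% of tested miRNAs had that pattern. Since the pair was chosen on this contrast, nothing is read from these counts.

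miR-142a-3p entered the fit through its SE-BDEV values. Its mean over all libraries was 11.1 RPM, just over the filter, and its CON-BDEV mean of 5.62 RPM was under it. miR-142a-5p was no longer called without CON-BDEV 1 (log2 difference 1.75), SE-BDEV 1 (1.82) or SE-BDEV 2 (1.64), or when the library totals were taken without the 10 most abundant miRNAs (1.76).

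The authors' deposited table gave miR-142a-5p a log2 fold change of 1.87 with a standard error of 0.39, and miR-142a-3p one of 1.51 with a standard error of 0.54. By p-value they stood 3 and 18 of the 803 rows of the authors' deposited table. Its adjusted p was under 0.05 for 1 of the 2 arms, miR-142a-5p, and for 1.12% of the 625 miRNAs that have an adjusted p.

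**Figure D3:**
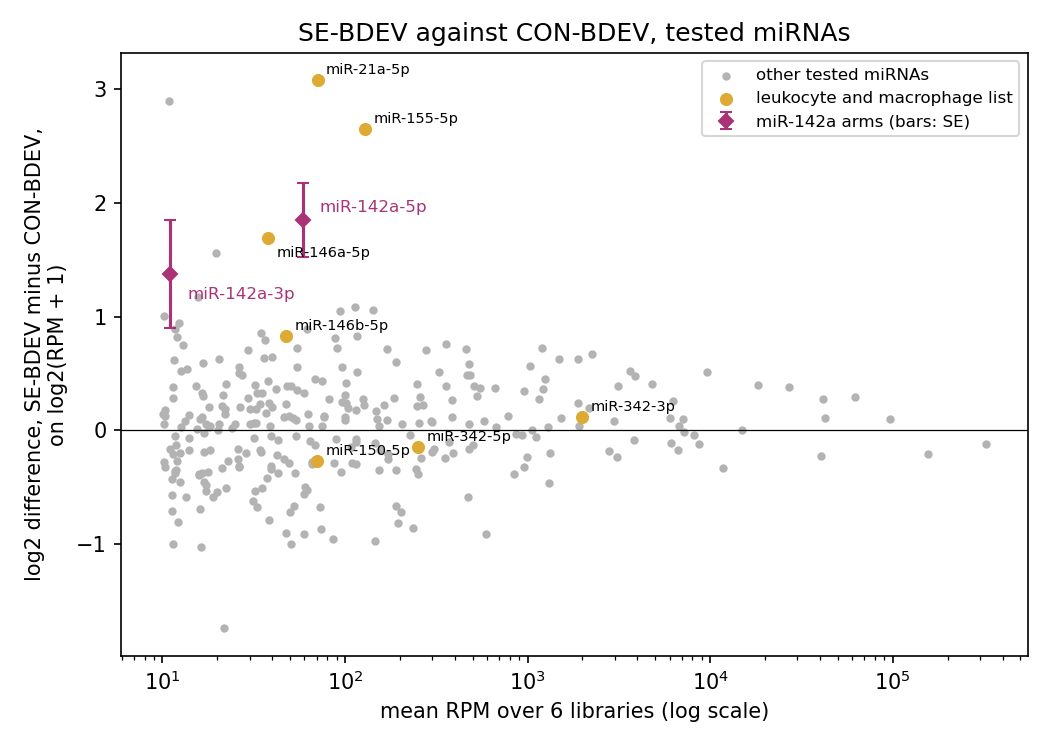
Log2 difference of SE-BDEV minus CON-BDEV on log2(RPM + 1) against the mean RPM over 6 libraries (log scale) for the 308 tested miRNAs, with the miR-142a arms as diamonds (bars are SE) and the tested members of a leukocyte and macrophage list named. miR-142a-5p (1.85) and miR-142a-3p (1.37) lie near the top, below miR-21a-5p (3.08) and miR-155-5p (2.65).

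Both arms were above the filter for 51 hairpins with unmerged rows, paired by mature name. A name made by more than 1 hairpin counts as 1 here. miR-142a was compared with these 51 because arms of 1 hairpin come from 1 transcript. The place of miR-142a among them follows from the contrast on which it was chosen, and its 3p arm is among them only through its SE-BDEV values, so nothing is read from it. Its 3p arm was the least abundant minor arm of the 51. miR-142a had the highest log2 difference of the 51 for the 5p arm and also for the 3p arm, while the medians were 0.11 for 5p arms and -0.0381 for 3p arms. For another hairpin, miR-92b, both arms had lower SE-BDEV values without overlap, at log2 differences of -0.82 for 5p and -0.86 for 3p. The same arm was the more abundant in all 6 libraries for 38 of the 51 hairpins, miR-142a among them, and 5p was the more abundant on average for 30.

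The SD of the log2 arm ratio over the 6 libraries was 0.65 for miR-142a, which ranked 9 of 51 from the highest, against a median of 0.50. The difference in arm ratio between the groups, 0.48 for miR-142a, ranked 11 of 51 in a range from -1.01 to 1.03. On both measures other hairpins exceeded miR-142a.

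**Figure D4:**
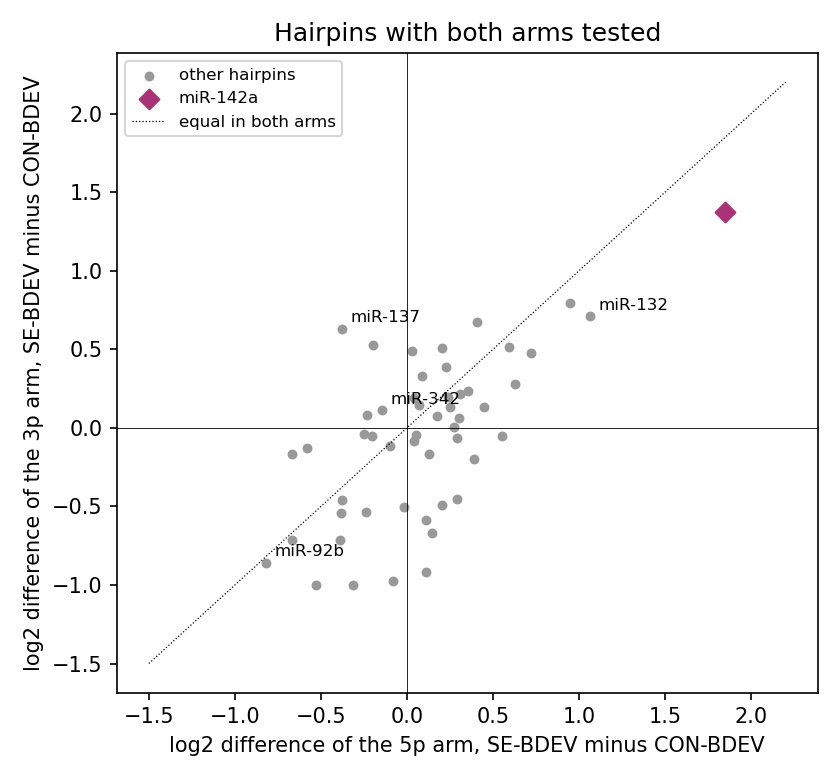
Log2 difference (SE-BDEV minus CON-BDEV) of the 3p arm against that of the 5p arm for the 51 hairpins with both arms tested, with miR-142a as a diamond and a dotted line where both arms differ equally. miR-142a lies at 1.85 and 1.37, and the next hairpin along the 5p axis is miR-132 at 1.06.

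Other miRNAs known from leukocytes and macrophages were followed in a list of 18 mature miRNAs without miR-142a. Of these, 4 were listed at 0 in all libraries, 7 were above 0 in all libraries, and the same number, 7, passed the filter. Of the 7 tested, 2 were called higher in SE-BDEV (miR-21a-5p and miR-155-5p) and 0 lower by limma, where 0.974% of all tested miRNAs were called higher. At an unadjusted p under 0.05 the limma counts were 4 higher and 0 lower, where 8.12% of all tested miRNAs were higher at that p. SE-BDEV was higher without overlap for 4 of 7, against 10.7% of all tested miRNAs. The median log2 difference of the 7 was 0.83, against 0.06 over all tested miRNAs. The list was chosen with earlier results of these data known, so nothing is read from these counts or this median.

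miR-155-5p, which immune cells induce on activation, went from 27.7 to 39.4 RPM in CON-BDEV to 189 to 259 RPM in SE-BDEV. miR-21a-5p, a miRNA that injured tissues often raise, went from 7.05 to 21.0 RPM to 97.5 to 163 RPM. miR-146a-5p, a brake on inflammatory signalling, stood at 10.9, 15.3 and 24.6 RPM in CON-BDEV 1, 2 and 3 and at 69.3, 77.9 and 29.3 RPM in SE-BDEV 1, 2 and 3. Like miR-142a-5p, miR-146a-5p was highest in SE-BDEV 2 and lowest of its group in SE-BDEV 3, while miR-21a-5p was highest in SE-BDEV 3. miR-146a-5p was not called (limma adjusted p = 0.105). It was not called under 13 of 19 alternatives either (limma adjusted p 0.0945 to 0.699, the highest without SE-BDEV 1). It was called under the other 6, among them without CON-BDEV 2 (0.00932) and without SE-BDEV 3 (0.0148). Others of the 6 were array weights (0.0128), both libraries numbered 3 left out (0.0170) and the replicate number as a block (9.34e-05). miR-146b-5p, which shares the miR-146a-5p seed family, stood at 27.5 to 38.8 RPM in CON-BDEV and 58.4 to 63.6 RPM in SE-BDEV and was not called (limma adjusted p = 0.344).

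The list also held miRNAs known from lymphocytes. miR-150-5p, abundant in mature lymphocytes, stood at 63.8 to 88.5 RPM in CON-BDEV and 49.3 to 81.2 RPM in SE-BDEV, a log2 difference of -0.27 that turned to 0.00687 without both libraries numbered 3. miR-342-3p, found in lymphoid cells and in brain, stood at 1676 to 2336 RPM and 1756 to 2326 RPM. Its other arm, miR-342-5p, stood at 200 to 297 RPM and 139 to 330 RPM. The groups overlapped for each of these miRNAs.

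The myeloid miR-223-3p, abundant in neutrophils, was too low for the fit. It stood at 3.41, 2.58 and 0 RPM in CON-BDEV 1, 2 and 3 and at 6.18, 7.21 and 4.30 RPM in SE-BDEV 1, 2 and 3, so it was below miR-142a-5p in every library. Its groups did not overlap, at levels where 3 reads correspond to 0.319 to 0.682 RPM. The macrophage miR-511-3p stood at 0 to 7.14 RPM in CON-BDEV and 0 to 6.07 RPM in SE-BDEV.

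Markers of other cells were read beside these values. Of the red cell miRNAs, miR-451a and both arms of miR-144 were listed at 0 in every library, which may be values set to 0. The merged row of miR-486a-5p and miR-486b-5p, also abundant in red cells, stood at 83.6 to 199 RPM in CON-BDEV and 102 to 111 RPM in SE-BDEV. All 6 neuronal markers were above 0 in every library, and they summed to 24375 to 30825 RPM in CON-BDEV and 22002 to 41264 RPM in SE-BDEV. The 6 leukocyte markers summed to 1836 to 2465 RPM and 2030 to 2731 RPM, of which miR-342-3p was most. Without it, the sum of the other 5 was 274 to 405 RPM for the SE-BDEV libraries, against 111 to 160 RPM for CON-BDEV. Most of that difference was miR-155-5p, whose group mean was 222 RPM after seizures against 34.7 RPM for controls. The means of miR-146a-5p (58.8 against 17.0 RPM) and miR-223-3p (5.89 against 2.00 RPM) were also higher. Those of miR-150-5p (64.1 against 76.7 RPM) and miR-511-3p (2.67 against 3.04 RPM) were lower.

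The 2 endothelial markers summed to 2828 to 4276 RPM in CON-BDEV and 4116 to 6342 RPM in SE-BDEV. The groups did not overlap for miR-126a-5p (256 to 399 RPM and 441 to 728 RPM). They overlapped for miR-126a-3p (2571 to 3893 RPM and 3572 to 5614 RPM). The 3 oligodendrocyte markers, with miR-219a-5p listed at 0 throughout, summed to 137 to 170 RPM and 198 to 296 RPM. Of these, miR-338-3p did not overlap between the groups (110 to 144 RPM and 160 to 275 RPM), and miR-219a-2-3p did (26.0 to 35.7 RPM and 20.7 to 47.3 RPM). The 4 choroid plexus markers summed to 310 to 718 RPM and 545 to 791 RPM, most of it miR-204-5p. miR-449a-5p stood at 5.89 to 9.09 RPM in CON-BDEV and 10.6 to 21.5 RPM in SE-BDEV, without overlap, and miR-34c-5p at 41.5 to 76.8 RPM and 73.9 to 155 RPM. The median log2 difference of tested markers was 0.81 for the 3 of choroid plexus, 0.60 for the 2 of endothelium, 0.45 for the 2 of oligodendrocytes and 0.26 for the 6 of neurons, so the choroid median was close to the 0.83 of the leukocyte and macrophage list. Among the choroid markers, miR-449a-5p passed the filter only through its SE-BDEV values (CON-BDEV mean 7.78 RPM), so nothing is read from the choroid median. The part of any of these cells in the miR-142a values was not tested.

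By Pearson's r of log2(RPM + 1) over the 6 libraries, among 307 other tested miRNAs, the 5 most like miR-142a-5p were miR-155-5p (0.97), miR-146a-5p (0.95), miR-15b-5p (0.94), miR-122-5p (0.94) and miR-21a-5p (0.92). The 5 most like miR-142a-3p were miR-669c-5p (0.94), miR-155-5p (0.89), miR-20a-5p (0.88), miR-21a-5p (0.88) and the merged miR-199a-3p and miR-199b-3p (0.86). Each arm was less like its partner arm than these, at 0.79, which ranked miR-142a-3p 20 for the 5p arm and miR-142a-5p 18 for the 3p arm. The 6 libraries fall into the study's 2 groups and share their totals, so r includes the group difference and is a description. Like miR-142a-3p, miR-20a-5p passed the filter only through its SE-BDEV values (CON-BDEV mean 9.15 RPM).

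With the group means removed the likeness changed. For miR-142a-5p, r of the deviations was 0.90 with miR-146a-5p and 0.86 with miR-122-5p, a liver miRNA, against 0.53 with miR-155-5p and 0.05 with miR-21a-5p. For miR-142a-3p it was 0.91 with miR-669c-5p, from the Sfmbt2 cluster, and 0.31 with both miR-155-5p and miR-21a-5p. Between the arms of miR-142a it was -0.31. These r were taken only for the miRNAs picked above and the partner arm. They have no rank among the 307 tested miRNAs and are a description. miR-122-5p stood at 75.0 to 79.7 RPM in CON-BDEV and at 132, 128 and 88.7 RPM in SE-BDEV 1, 2 and 3. miR-669c-5p stood at 232 to 268 RPM and at 257, 307 and 302 RPM.

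**Figure D5:**
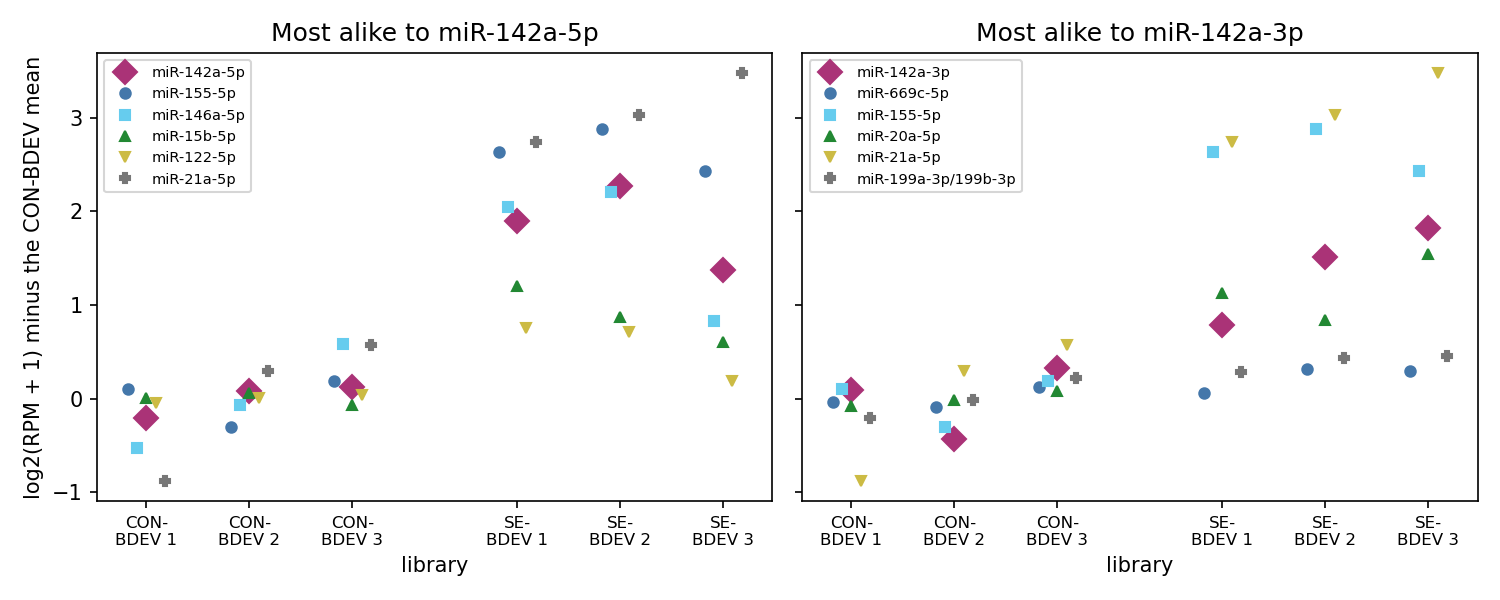
Log2(RPM + 1) minus the CON-BDEV mean, per library, for miR-142a-5p (left, diamonds) and miR-142a-3p (right, diamonds) with the 5 miRNAs most like each by Pearson's r. miR-142a-5p and miR-146a-5p are both lowest of the SE-BDEV group in library 3 (64.3 and 29.3 RPM), where miR-142a-3p and miR-21a-5p are highest (21.9 and 163 RPM).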

How the data were processed

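The authors deposited RPM values, which sum to 1000000 in each of the 6 libraries, for 1926 rows. The miRNeasy Micro Kit (with DNase treatment) and the QIAseq miRNA Library Kit were used, per the labels' protocols. The submitters' processing notes name DESeq2 and mm9, while the aligner, the counting and any use of molecular identifiers are not given in the sources used. The second deposited table holds a mean normalized signal, log2 fold changes with standard errors, a test statistic (score) and p-values, raw and adjusted. All RPM values were whole multiples of a step within a tolerance of 0.001. The smallest listed value was 2 steps, so no count model was fitted. The steps gave 4400167 to 9391887 reads per library. A listed 0 may be fewer than 2 reads or a value set to 0.

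limma 3.58.1 (R 4.3.3, statmod 1.5.0) was fitted to log2(RPM + 1), two-sided, with robust empirical Bayes and a trend on the mean level, and was tested on simulated data. Fold changes on this scale understate the change of low miRNAs. Sequences came from RefSeq (GRCm38.p6), with 87.0% of tested rows matched by name, and folds from RNAfold 2.7.2. Named were the arms, miRNAs sharing a seed or the locus, the leukocyte and red cell lists, the 5 miRNAs most alike to each arm, and hairpins with both arms tested. The members and lists were chosen with earlier results of these data known. Alternatives changed the filter, pseudocount, scaling, weights, replicate block and libraries.

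The groups share replicate numbers. Deviations from the group means correlated at 0.216, 0.202 and 0.462 for the pairs numbered 1, 2 and 3, and at -0.0639, -0.0614 and -0.0806 without miR-24-3p, which was listed above 0 in the libraries numbered 3 alone. Nothing in the labels pairs them.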

Additional observations from a re-analysis of the deposited data

How the results depend on the processing

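miR-142a-5p kept a higher SE-BDEV value under all 19 alternatives that tested it (log2 differences 1.55 to 2.15) and was called under 15, as a description. It fell short with totals taken without the 10 most abundant miRNAs (1.76). Leaving out 1 library gave 1.64 to 2.09, and fell short for each of CON-BDEV 1, SE-BDEV 1 and SE-BDEV 2. miR-142a-3p was called under none of 19 (0.74 with a pseudocount of 10 to 1.67 without SE-BDEV 1). Neither arm was tested with a filter at a mean of 100 RPM. Against 3 called miRNAs, 10 were called with the replicate block, 10 with the block once miR-24-3p was removed (chosen after seeing the data), 6 with array weights, 1 with the filter at 100 RPM, and 2 to 8 with 1 library left out, the 8 without CON-BDEV 2. The block changed the call of neither arm: their log2 differences stayed at 1.85 and 1.37. The difference in log2 arm ratio kept its sign under 10 alternatives, at 0.15 to 0.94. Scaling moved the median of tested miRNAs from 0.06 to -0.00776 (median-of-ratios), -0.0283 (10 most abundant left out) and -0.0106 (quantile). Some uncalled values changed sign: miR-342-3p with quantile normalization (-0.26), miR-342-5p with array weights (0.18), without both libraries numbered 3 (0.33) and with 1 library left out (-0.40 to 0.22), the merged miR-486a-5p and miR-486b-5p with array weights (0.20) and with 1 library left out (-0.29 to 0.33), and miR-150-5p without both libraries numbered 3 (0.00687). The cause was not tested. The planned edgeR and DESeq2 fits were not run, since no library lists a value of 1 read. miR-142a-3p rests on 26 to 148 reads per library.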

Other observations

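The seed of miR-142a-5p has relatives that are shifted by a base, looked for after the sequences were seen. Bases 2 to 7 of miR-142a-5p recur at bases 3 to 8 of miR-340-5p and at bases 1 to 6 of miR-9-3p, marked here in capitals.
miR-340-5p: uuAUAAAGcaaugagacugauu
miR-9-3p: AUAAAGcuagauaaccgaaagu
miR-340-5p stood at 23.1 ± 2.68 RPM (SD, n = 3) in CON-BDEV and at 27.3, 38.0 and 72.7 RPM in SE-BDEV 1, 2 and 3, so it was near the level of miR-142a-5p in CON-BDEV. Its 3 SE-BDEV values lay above all its CON-BDEV values, and it was not called (limma adjusted p = 0.438). The neuronal miR-9-3p was far more abundant, at 1086 to 2185 RPM in CON-BDEV and 2117 to 3783 RPM in SE-BDEV, with overlapping groups. In the library with the lowest miR-142a-5p of its group, SE-BDEV 3, both of these miRNAs were at their highest.

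Among annotated miRNA genes in order along chromosome 11 of GRCm38.p6, leaving aside miR-142b, the nearest on one side is that of miR-301a, and the third on that side is that of miR-21a. miR-301a-3p stood at 3.64 to 4.66 RPM in CON-BDEV and 4.20 to 7.56 RPM in SE-BDEV, with overlapping groups. On the other side the nearest is that of miR-378b, whose row is merged with its relatives, at 106 to 124 RPM and 118 to 155 RPM. Of the neighbours looked at, 4 genes on each side, miR-10a-5p stood at 10.5, 4.91 and 9.88 RPM in CON-BDEV 1, 2 and 3 and at 18.8, 18.8 and 9.33 RPM in SE-BDEV 1, 2 and 3. It was, like miR-142a-5p, lowest of its group in SE-BDEV 3, while miR-301a-3p and miR-21a-5p were highest there. The merged row of miR-378b was lowest in SE-BDEV 2. In CON-BDEV 1, miR-10a-5p was highest of its group and miR-142a-5p lowest.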
